A study of Mus musculus with 11 samples.

Results

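The 10 genes described here are apolipoproteins and other secreted or endocytic products of the visceral endoderm: Apoa1, Apoa2, Apoa4, Apob, Apoc1, Apoe, Afp, Ttr, Amn and Rbp4, of 23284 genes listed in each file. They were selected by symbol, and the selection was based on the level of Apoa2 in TKO against WT cells, so for these genes that contrast is given below as a description, with no p-value, and the standard errors and counting intervals printed with it describe precision only. Transcripts were measured by RNA-seq in 11 libraries of mouse embryonic stem cells (ESCs), grown on gelatin with serum and leukemia inhibitory factor. WT cells and cells with Tet1, Tet2 and Tet3 knocked out (TKO) were each sampled at 0 h and at 4 h of α-amanitin, which blocks RNA polymerase II, at 10 μg/ml, with 2 libraries of ribodepleted total RNA per group. The labels mention water as the vehicle and do not say whether the 0 h cells received it. The fifth group held 3 libraries of polyadenylated RNA from WT ESCs. The TKO line had been made previously, and the sources used here do not say how many clones it represents or which part of each Tet gene is missing. The study describes the α-amanitin RNA-seq as biological duplicates, while the labels do not say whether the libraries came from separate cultures, and the p-values below measure only the spread between these libraries.

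Apolipoproteins are the protein part of lipoprotein particles, which carry cholesterol and triglycerides between cells. In the early mouse embryo the visceral endoderm, an extraembryonic epithelium, takes up maternal nutrients and secretes apolipoproteins and serum carriers before the liver has formed. Embryonic stem cells are pluripotent cells of the embryo proper and can form this tissue when they differentiate. TET enzymes oxidise 5-methylcytosine, and in DNA the base that they act on lies mostly in CG dinucleotides.

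The sequence upstream of the start of Apoa2 and of Apoe is shown first, because Apoa2 differed most between the genotypes and Apoe was the most abundant of the 10 transcripts. RefSeq promoter windows (build GRCm38.p6) were read for 8 of the 10 genes, and the 250 bases before a start are given from 5′ to 3′ with every CG dinucleotide in capitals. The Apoa2 window, chr1:171224804-171225053 on the plus strand, lies before the downstream of its RefSeq starts, and the Apoe window, chr7:19699189-19699438 on the minus strand, before the most upstream of its starts.
Apoa2: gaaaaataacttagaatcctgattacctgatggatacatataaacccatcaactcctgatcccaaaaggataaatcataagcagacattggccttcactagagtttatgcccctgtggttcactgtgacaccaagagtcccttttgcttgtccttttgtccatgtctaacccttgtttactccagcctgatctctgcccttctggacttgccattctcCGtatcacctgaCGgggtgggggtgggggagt
Apoe: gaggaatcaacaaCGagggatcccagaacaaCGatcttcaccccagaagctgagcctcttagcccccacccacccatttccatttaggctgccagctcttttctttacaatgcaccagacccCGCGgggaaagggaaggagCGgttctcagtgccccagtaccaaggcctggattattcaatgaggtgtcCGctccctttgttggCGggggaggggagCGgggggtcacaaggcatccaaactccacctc
The Apoa2 window held 2 CG dinucleotides and the Apoe window 8, against a median of 6 over 32851 RefSeq windows of this length. Of those windows, 29.0% held as few CG as the Apoa2 window or fewer, and 59.7% as few as the Apoe window or fewer. The window before the other Apoa2 start held 1 CG. It was the only one of the members' windows read here with AGGTCA on either strand, the half-site of several nuclear receptors, which 14.0% of all windows held. Among the other members, the count of CG ran from 1 for Afp and Apoa4 to 28 for the second window of Rbp4. The motif was chosen after the expression values were seen, and no methylation was measured in these files.

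Values are given in TPM, the share of a library's length-corrected transcripts scaled to the same total in every library, as the authors deposited it. For comparisons, TPM was divided by a size factor per library, and differences are on the scale of log2(scaled TPM + 1), which understates differences of low genes. The TPM of every gene fell on steps of whole reads, so the reads behind each value could be recovered. They totalled 25511973 to 29786093 per ribodepleted library and 72653679 to 82144939 per polyA library. As a check of the labels, Tet1 stood at 135 ± 17.7 TPM (SD, n = 2) in WT and 32.5 ± 0.365 in TKO at 0 h, and Tet2 at 52.5 ± 6.74 and 8.06 ± 0.379. Tet3 stood at 1.47 ± 0.00799 in WT and 1.57 ± 0.102 in TKO, so its reads did not separate the libraries labelled TKO from the others. Reads from outside a deleted part check nothing.

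Most of the RNA of the 10 genes came from one of them. Apoe made up between 84.7% and 95.4% of the summed TPM of the 10 genes in every library. In WT cells at 0 h the order per length was Apoe at 705 TPM, Apoc1 at 36.4, Apoa2 at 19.2 and Amn at 1.55, followed by Rbp4 at 0.460, Apob at 0.319 and Apoa1 at 0.287. The libraries of neighbouring genes in this order did not overlap, except those of Apob and Apoa1. Afp, Ttr and Apoa4 were listed at 0 in both libraries. In TKO cells at 0 h the order was Apoe, Apoc1, Amn, Rbp4, Apob, Apoa1, Apoa2 and Afp, and the libraries of Amn overlapped those of Rbp4, those of Apoa1 overlapped those of both Apob and Rbp4, and those of Apoa1, Apoa2 and Afp overlapped in turn. Only Apoa2, Apoc1, Apoe and Amn, 4 of the 10, had a mean scaled TPM over 1 and were tested, and Apoa2 passed this filter through its WT libraries alone.

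The visceral endoderm name of these genes was checked against the tissue's other markers. Of 13 visceral endoderm markers, Cer1 was listed at 0 in all 4 libraries at 0 h. Hnf4a is the nuclear receptor that drives many liver and visceral endoderm genes. At 0 h it had a mean of 0.0325 TPM in WT, from 1 to 3 reads per library, and was listed at 0 in TKO. In the more deeply sequenced polyA libraries of WT cells its mean was 0.774 TPM, from 125 to 131 reads each. The summed level of the list at 0 h was 80.5 to 87.6 TPM in WT and 50.1 to 52.5 in TKO. Most of it came from Spink3, a trypsin inhibitor, and Lrp2, the endocytic receptor megalin, so the level of the list does not stand for the tissue. The 10 ESC markers summed to 4745 to 4801 TPM in WT and 4557 to 4612 in TKO at 0 h. The largest of them, Dppa5a, had a mean of 1603 TPM in WT and 1991 in TKO. This sum therefore does not stand for each marker, and 3 of the 10 were called lower in TKO and 0 higher, as given below. In bulk libraries such as these, fewer cells of a type and less RNA per cell cannot be told apart.

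**Figure D1:**
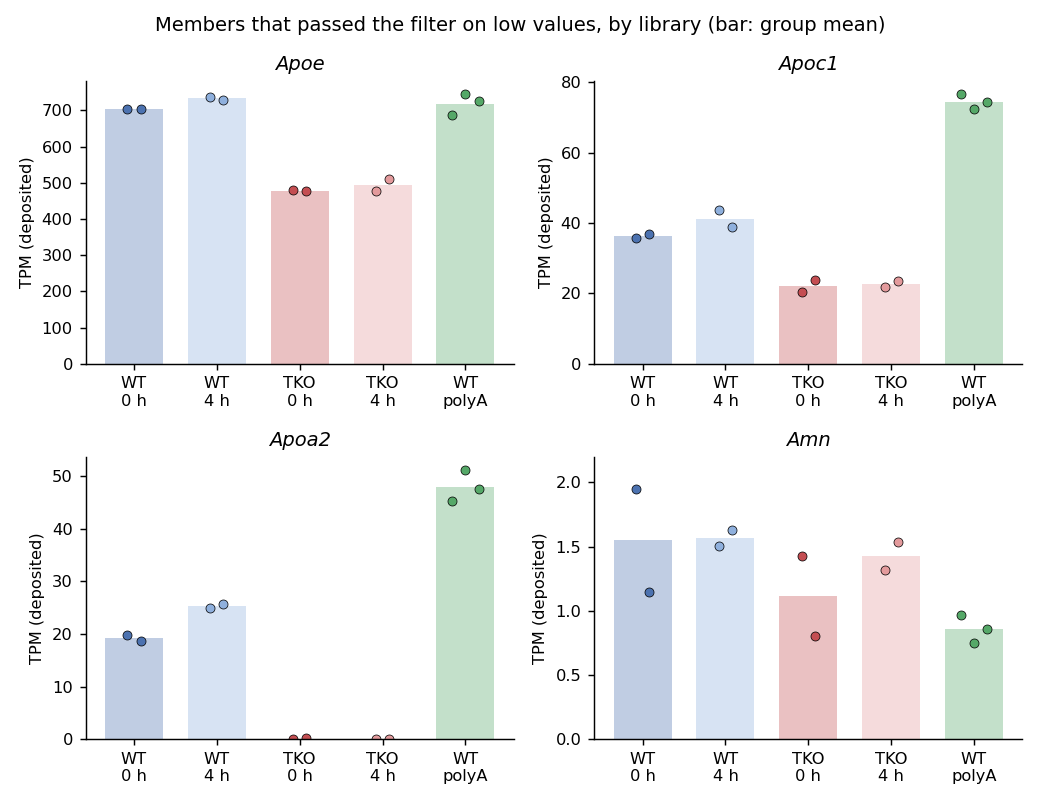
TPM (y axis, linear from 0) of Apoe, Apoc1, Apoa2 and Amn in each library of the 5 groups (x axis), with points for libraries and bars for group means of 2 ribodepleted or 3 polyA libraries. Apoa2 is at or near 0 in all 4 TKO libraries, whereas Apoe and Apoc1 are lower in TKO but present, and Amn overlaps between the genotypes at 0 h.

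Apoa2 encodes the second most abundant protein of high-density lipoprotein. It lies on chromosome 1 at 173155185 to 173156510 on the plus strand in NCBIM37, the build that corresponds to the mm9 of the files, and no other annotated gene overlapped it. Its TPM was 19.8 and 18.7 in WT at 0 h and 24.9 and 25.8 in WT at 4 h, from 141 to 195 reads per library. In TKO it was 0 and 0.290 at 0 h and 0 in both libraries at 4 h, a total of 2 reads in 4 libraries. The 3 polyA libraries of WT cells held 45.2, 51.1 and 47.6 TPM, and the sample titles do not say whether they came from the same experiment. Every WT library was therefore far above every TKO library. At 0 h the ratio of TKO to WT was 0.00707, with an exact 95% interval of 0.000852 to 0.0258 from 2 against 285 reads. At 4 h, with 0 against 389 reads, the ratio was 0, with an exact 95% upper limit of 0.0106. Set instead at a floor of 3 reads over the group, TKO would lie about 117-fold below WT. These bounds, and all intervals on reads below, cover counting error only. The ratios printed with them compare deposited TPM, without size factors. The window shown above for this gene held few CG, and whether methylation there differed was not tested.

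Apoc1 and Apoe lie next to each other on the minus strand of chromosome 7, at 20274833 to 20278007 and 20281458 to 20284515. Apoc1 encodes a small apolipoprotein that inhibits lipoprotein uptake. Its TPM was 35.9 and 36.9 in WT at 0 h, 43.7 and 38.7 in WT at 4 h, 20.3 and 23.9 in TKO at 0 h, and 21.8 and 23.6 in TKO at 4 h. No WT library overlapped a TKO library. Scaled means in TKO were 0.567 of WT at 0 h and 0.494 at 4 h, and the log2 differences, TKO minus WT, were -0.79 ± 0.10 (SE) and -0.98 ± 0.10. Apoe encodes the ligand through which remnant particles bind receptors of the LDL receptor family. It held 705 and 704 TPM in WT at 0 h, 738 and 729 in WT at 4 h, 479 and 478 in TKO at 0 h, and 476 and 510 in TKO at 4 h. The genotypes again did not overlap, and the difference was smaller, -0.65 ± 0.07 at 0 h and -0.73 ± 0.07 at 4 h on the log2 scale. Without size factors, where the median of all genes at 4 h was 0.14, the Apoe difference was -0.56 and -0.57, under the 1.5-fold limit at both times.

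Because both genes were read in the same libraries, their ratio does not depend on scaling. Apoc1 stood at 5.17% ± 0.112 (SD, n = 2) of Apoe TPM in WT at 0 h, 5.61% ± 0.428 in WT at 4 h, 4.62% ± 0.550 in TKO at 0 h and 4.60% ± 0.0308 in TKO at 4 h. The lowest WT library, at 5.09%, lay just above the highest TKO library, at 5.00%. In the polyA libraries the same ratio was 10.4% ± 0.716 (n = 3).

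Amn encodes amnionless, the membrane partner of cubilin in the receptor for vitamin B12 bound to intrinsic factor. It lies on chromosome 12 at 112509322 to 112514637, plus strand. Its TPM was 1.95 and 1.15 in WT at 0 h, 1.51 and 1.63 in WT at 4 h, 1.42 and 0.807 in TKO at 0 h, and 1.32 and 1.54 in TKO at 4 h. In deposited TPM the genotypes overlapped at both times, whereas in scaled TPM the libraries at 4 h did not, and 18 to 46 reads stood behind each value. The difference, TKO minus WT, was -0.31 ± 0.18 (SE) at 0 h and -0.18 ± 0.18 at 4 h on the log2 scale. At 0 h it was -0.10 without replicate 1 of WT and -0.53 without replicate 2, and -0.52 and -0.11 without replicates 1 and 2 of TKO. At 4 h it was -0.09 without replicate 1 of TKO and -0.27 without replicate 2. Its partner Cubn, named here after its values were seen, was under the filter and untested, with a mean of 1.14 TPM in WT and 0.275 in TKO at 0 h.

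In the comparisons below, a gene is called where its adjusted p was under 0.05 and its difference over 1.5-fold. In TKO against WT, 3 of the 4 genes that passed the filter lay past these limits on the lower side at each time, and 0 on the higher side, which for them is no test, since Apoa2 was selected for its level in TKO and passed the filter through WT alone. Of the 12467 genes tested, 5.43% were called lower and 10.5% higher at 0 h, and 5.82% lower and 11% higher at 4 h. Since this contrast entered the selection of the 10 genes, nothing is read from these counts.

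**Figure D2:**
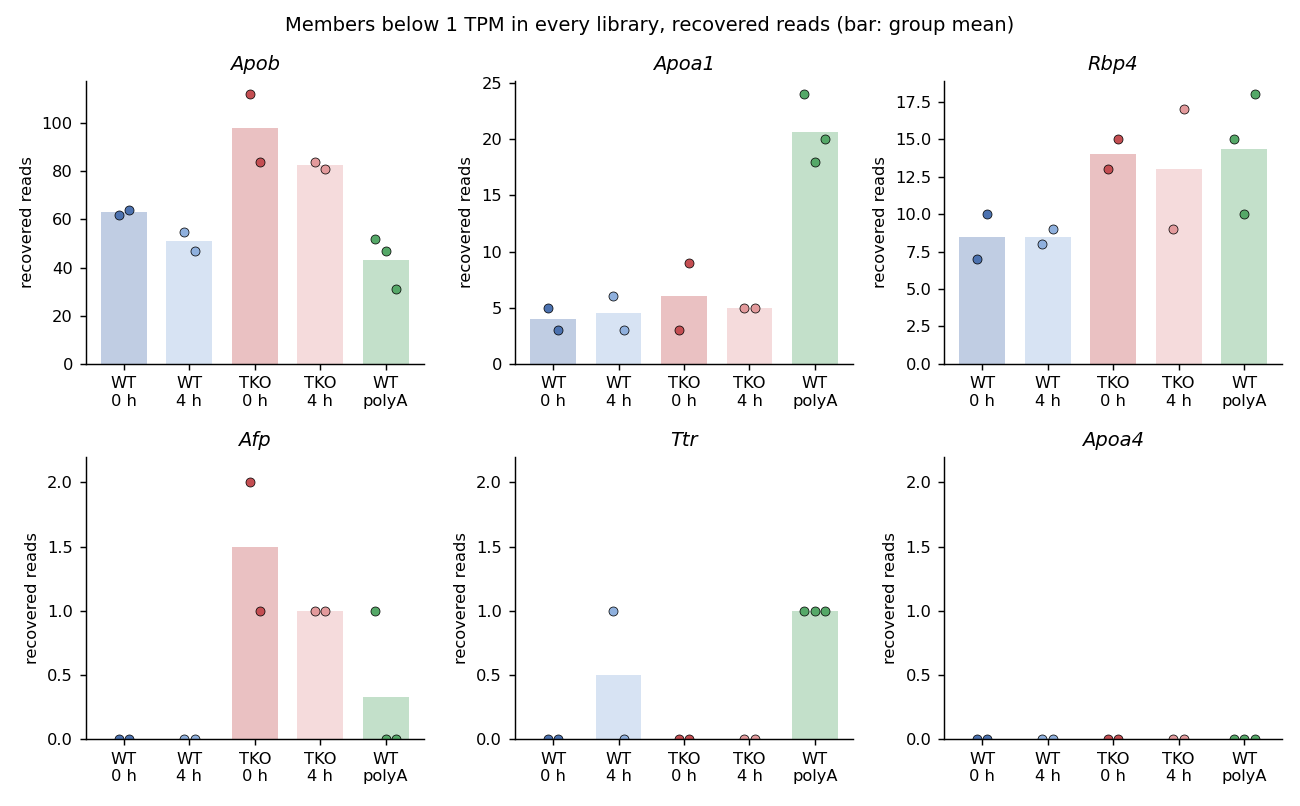
Recovered reads (y axis, linear from 0) of the 6 genes that stayed under 1 TPM in every library, by group (x axis), with points for libraries and bars for group means. The polyA libraries were sequenced more deeply than the others, so their reads are not to be set against the ribodepleted ones. Apob is higher in every TKO library than in every WT ribodepleted library, and the other genes rest on 17 reads per ribodepleted library or fewer.

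The remaining 6 genes were below 1 TPM in every library and untested. Apob encodes the structural protein of chylomicrons and very low-density lipoproteins and lies on chromosome 12 at 7984454 to 8023641. It had 62 and 64 reads in WT at 0 h, 55 and 47 in WT at 4 h, 112 and 84 in TKO at 0 h, and 84 and 81 in TKO at 4 h. In TPM this was 0.319 and 0.319, 0.264 and 0.233, 0.537 and 0.456, and 0.462 and 0.431 in the same order. All 4 TKO libraries were above all 4 WT libraries, the opposite of Apoa2, Apoc1 and Apoe. The ratio of TKO to WT was 1.57 (exact 95% interval 1.25 to 1.98) at 0 h and 1.80 (1.39 to 2.32) at 4 h. With size factors the ratio of scaled means was 1.46 at 0 h and 1.61 at 4 h. The low level, spread over a transcript of 13909 bases as the steps of the values give it, was not tested because it lay under the filter.

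Rbp4 encodes the plasma carrier of retinol and Ttr encodes transthyretin, which binds thyroid hormone and the retinol carrier. Rbp4, on chromosome 19, had 7 to 10 reads per WT ribodepleted library and 9 to 17 per TKO library. Its ratio of TKO to WT was 1.66 at 0 h, with an exact 95% interval of 0.877 to 3.23 that includes no difference, and 1.70 at 4 h (0.887 to 3.34). Over both times together it was 1.68 (1.07 to 2.66, from 54 against 34 reads), although 1 TKO library at 4 h lay within the range of the WT libraries. These ratios are without size factors, and the ratio of scaled means was 1.56 at 0 h and 1.53 at 4 h. No interval was computed with size factors, so whether it would lie wholly above 1 was not tested. Ttr, on chromosome 18, had 1 read in 1 WT library at 4 h, 1 read in each polyA library and none elsewhere. It overlaps an annotated gene on the opposite strand, Gm16090, and the strand setting of the counting was not given in the sources used here.

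Apoa1, the main protein of high-density lipoprotein, and Apoa4, a chylomicron protein, are neighbours on chromosome 9. Apoa1 had 3 to 6 reads per WT and 3 to 9 per TKO ribodepleted library, and its ratio of TKO to WT at 0 h was 1.51 with an exact 95% interval of 0.568 to 4.26. Apoa4 was listed at 0 in all 11 libraries. Afp, the fetal serum carrier alpha-fetoprotein, had no read in the 4 WT ribodepleted libraries and 2, 1, 1 and 1 in the TKO libraries. With so few reads a difference in Afp was not detectable at this depth. Apoa2 and Apoa1, whose proteins share the same particle, thus differed from one another in WT cells by 19.2 against 0.287 TPM at 0 h.

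The second question of the design was whether transcript levels moved during 4 h without new transcription. TPM is relative, so a loss shared by all transcripts cannot be seen in it, and a value above 0 means only that a transcript kept its share better than the typical one. In WT cells the log2 difference, 4 h minus 0 h, was 0.53 ± 0.11 (SE) for Apoa2, 0.33 ± 0.10 for Apoc1, 0.22 ± 0.07 for Apoe and 0.13 ± 0.18 for Amn. For Apoa2, Apoc1 and Apoe both libraries at 4 h were above both at 0 h, and for Amn the times overlapped. The share of all genes that separated in this way was not counted, so nothing is read from it. The adjusted p from limma was 0.0097 for Apoa2, 0.033 for Apoc1, 0.032 for Apoe and 0.59 for Amn. The fit shares its spread between WT and TKO libraries. In scaled TPM, Apoa2 was 19.2 and 18.9 in WT at 0 h and 27.9 and 28.0 at 4 h. In TKO at 0 h it was 0 and 0.267, from 0 and 2 reads, a wider gap on the log2 scale of the fit. The SE and adjusted p of Apoa2 therefore do not describe the spread of the WT libraries alone. No member passed 1.5-fold, so 0 of 4 were called, also with voom on recovered reads, beside 2.1% of all tested genes called in either direction. In limma 3 had an unadjusted p under 0.05, and since the share of all genes was not counted there, nothing is read from that count. At an adjusted p under 0.05 with no limit on fold, 3 of the 4 were higher at 4 h, and so were 21.9% of all tested genes.

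These differences or their adjusted p depended on the scaling and on other settings. Without size factors the median of all genes moved from 0.03 to -0.11, and the difference was 0.38 for Apoa2 (adjusted p from limma 0.048), 0.17 for Apoc1 (0.18) and 0.06 for Apoe (0.30). Under quantile normalisation Apoe was at 0.04 (0.48) and Apoc1 at 0.29 (0.070), and without the filter the adjusted p from limma was 0.086 for Apoc1 and 0.073 for Apoe. With a pseudocount of 0.1 TPM, the difference of Apoa2 was 0.55, near its 0.53 in the main fit, and its adjusted p from limma was 0.39. A smaller pseudocount widens the log2 gap between the 0 and 2 reads of TKO at 0 h, which enters the shared spread. This adjusted p, like that of the main fit, therefore does not describe the WT libraries alone. Leaving out replicate 1 of WT at 0 h gave an adjusted p from limma of 0.053 for Apoa2, 0.16 for Apoc1 and 0.15 for Apoe, and leaving out replicate 1 of WT at 4 h gave 0.062, 0.19 and 0.15. Without replicate 2 of WT at 0 h, Apoc1 stood at 0.068 and Apoe at 0.071. For Apoe the adjusted p from limma was also above 0.05 without replicate 2 of WT at 4 h (0.063) and without replicate 1 or 2 of TKO at 0 h (0.069 and 0.070).

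In TKO cells the log2 difference, 4 h minus 0 h, was 0.14 ± 0.07 (SE) for Apoe, 0.13 ± 0.10 for Apoc1 and 0.26 ± 0.18 for Amn. The adjusted p from limma was 0.22, 0.42 and 0.37. No difference is given for Apoa2, whose TKO libraries held no more than 2 reads. None of the tested members was called in TKO, beside 0.16% of all genes called. None of these members had an unadjusted p under 0.05 in limma. Leaving out replicate 1 of TKO at 4 h moved Apoe to 0.23 with an adjusted p from limma of 0.020, and leaving out replicate 2 moved it to 0.05 (adjusted p 0.73). Leaving out 1 TKO library in turn gave Apoc1 0.03 to 0.25 and Amn 0.05 to 0.47, none of them at an adjusted p from limma under 0.05. The difference between the genotypes in the change with α-amanitin was tested by an interaction term. It was -0.08 ± 0.09 (SE) for Apoe, -0.19 ± 0.14 for Apoc1 and 0.13 ± 0.25 for Amn, with adjusted p from limma of 0.81, 0.70 and 0.88. No member was called for it, beside 0% of all genes in limma and none by voom, while 938 genes had an unadjusted p under 0.05.

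**Figure D3:**
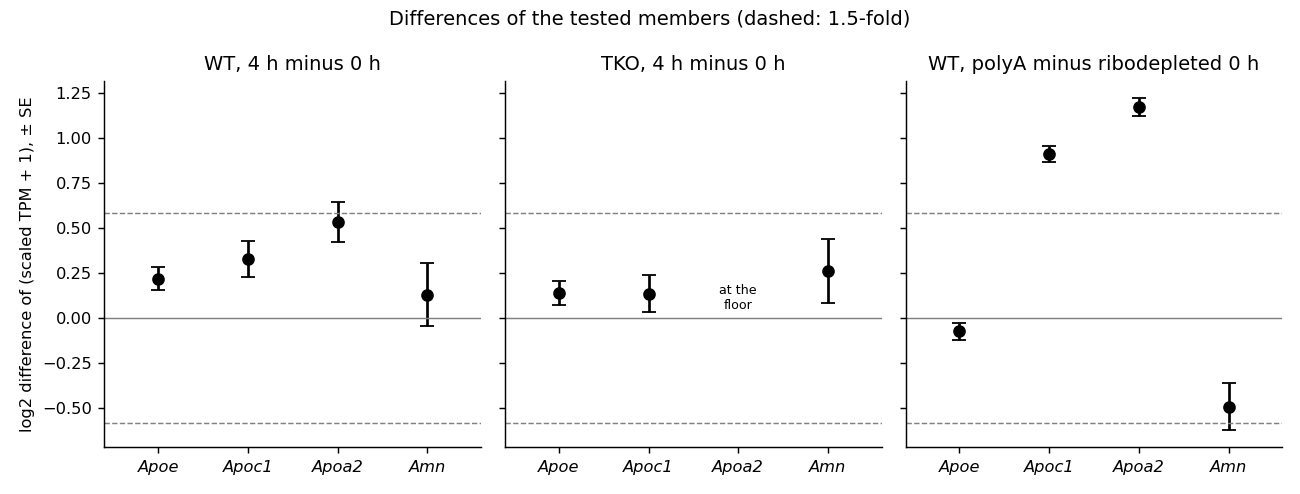
Log2 difference of scaled TPM + 1 (y axis, points with SE) of the 4 tested genes (x axis) in WT with α-amanitin, in TKO with α-amanitin, and between polyA and ribodepleted WT libraries. Dashed lines mark 1.5-fold. Apoa2 and Apoc1 pass the upper line only in the polyA comparison, and Apoa2 has no value in TKO, where it is at the floor of reads.

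WT ESCs were also read from polyadenylated RNA, which allows the WT levels to be compared between library types. Apoa2 was 45.2, 51.1 and 47.6 TPM in the polyA libraries against 19.8 and 18.7 in the ribodepleted WT libraries at 0 h, a log2 difference of 1.17 ± 0.05 (SE) with an adjusted p from limma of 1.4e-07. Apoc1 was 76.5, 72.4 and 74.5 against 35.9 and 36.9 TPM, a difference of 0.91 ± 0.05 with an adjusted p from limma of 3.3e-07. Both were above every ribodepleted WT library at 0 h. The share of all genes that separated in this way was not counted, so nothing is read from the separation. Apoe was 686, 744 and 726 against 705 and 704 TPM, and its difference was -0.08 ± 0.05 with an adjusted p from limma of 0.16. Amn was 0.970, 0.751 and 0.861 against 1.95 and 1.15 TPM, a difference of -0.49 ± 0.13 with an adjusted p from limma of 0.0077, short of 1.5-fold. Amn was called lower with a pseudocount of 0.1 TPM, with voom, and without replicate 2 of WT at 0 h. In all, 2 of the 4 tested genes were called higher and 0 lower, beside 18.7% and 16.4% of the 12481 genes tested. The untested Apob had 0.104, 0.0930 and 0.0539 TPM in polyA RNA, below its ribodepleted values. RNA selection differed between these libraries, and the sample titles do not say whether the experiment did too. Effects of selection and of experiment therefore cannot be told apart.

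The genes that work with the 10 were counted in the same fits, in lists chosen with results of these data known. Of 14 other apolipoprotein genes, 5 were tested in TKO against WT, and 1 was called higher and 1 lower at each time. Genes under the filter are outside these counts. Among them, mean TPM at 0 h in WT and TKO was 1.30 and 0.290 for Apod, 0.163 and 0.0196 for Apof, and 0.149 and 0.613 for Apoc4. The one that rose was Clu, which encodes the secreted chaperone clusterin, with a log2 difference of 0.71 ± 0.08 (SE) at 0 h and an adjusted p from limma of 0.00011. The one that fell was Apol6, with a scaled mean of 1.90 TPM in WT and 0.503 in TKO at 0 h, and a pseudocount of 5 TPM ended both of its calls and the call of Clu at 4 h, as did leaving out replicate 2 of TKO at 4 h for Clu (0.53). The median of the 5 was -0.13 at 0 h, against -0.02 over all genes tested.

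Of 19 genes of lipoprotein assembly and remodelling, 16 were tested, and 3 were called higher and 1 lower in TKO at each time. Furin, a protease that cuts lipases and their inhibitors, was higher by 0.91 ± 0.09 (SE) at 0 h and 0.95 ± 0.09 at 4 h on the log2 scale, with adjusted p from limma of 6.7e-05 and 4.7e-05. Abca1, which exports cholesterol to Apoa1 and Apoe, was lower, with a scaled mean of 4.35 TPM in WT and 1.76 in TKO at 0 h and a log2 difference of -0.95 ± 0.09. With a pseudocount of 5 TPM Abca1 was no longer called. The median of this list was 0.09 at 0 h.

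Of 14 genes for uptake of lipoproteins, retinol and vitamin B12, 11 were tested, and 2 were called higher and 0 lower at 0 h, with a list median of 0.23. At 4 h the counts were 1 and 0. Lrp1, a large endocytic receptor that binds Apoe, differed by 0.65 and Lmbrd1, which takes part in the lysosomal export of vitamin B12, by 0.59 at 0 h on the log2 scale. Both were close to the limit and lost the call under quantile normalisation, and Lmbrd1 also lost it at 0 h without replicate 1 of WT or replicate 2 of TKO (both 0.58). Of 17 genes of retinoid handling, on which the cargo of Rbp4 depends, 11 were tested and 4 were called higher at each time and 0 lower, with medians of 0.37 and 0.42. Crabp2, which carries retinoic acid to the nucleus, had a scaled mean of 4.52 TPM in WT and 15.0 in TKO at 0 h, a log2 difference of 1.54 ± 0.09 (SE) with an adjusted p from limma of 2.9e-06.

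Of 22 transcription factors and nuclear receptors known to act on apolipoprotein or Afp genes, 11 were tested, and 3 were called higher and 1 lower in TKO at 0 h, with a median of -0.16. At 4 h the counts were 3 and 0. Cebpa, a factor of liver and fat cells, rose from a scaled mean of 0.790 TPM in WT to 3.18 in TKO at 0 h, with an adjusted p from limma of 6.9e-05. Gata4, a factor of primitive and visceral endoderm, was called lower at 0 h, from 1.95 to 0.926, and lost the call without size factors (-0.57) and without replicate 1 of WT at 0 h (-0.58). A pseudocount of 5 TPM ended the calls of both.

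**Figure D4:**
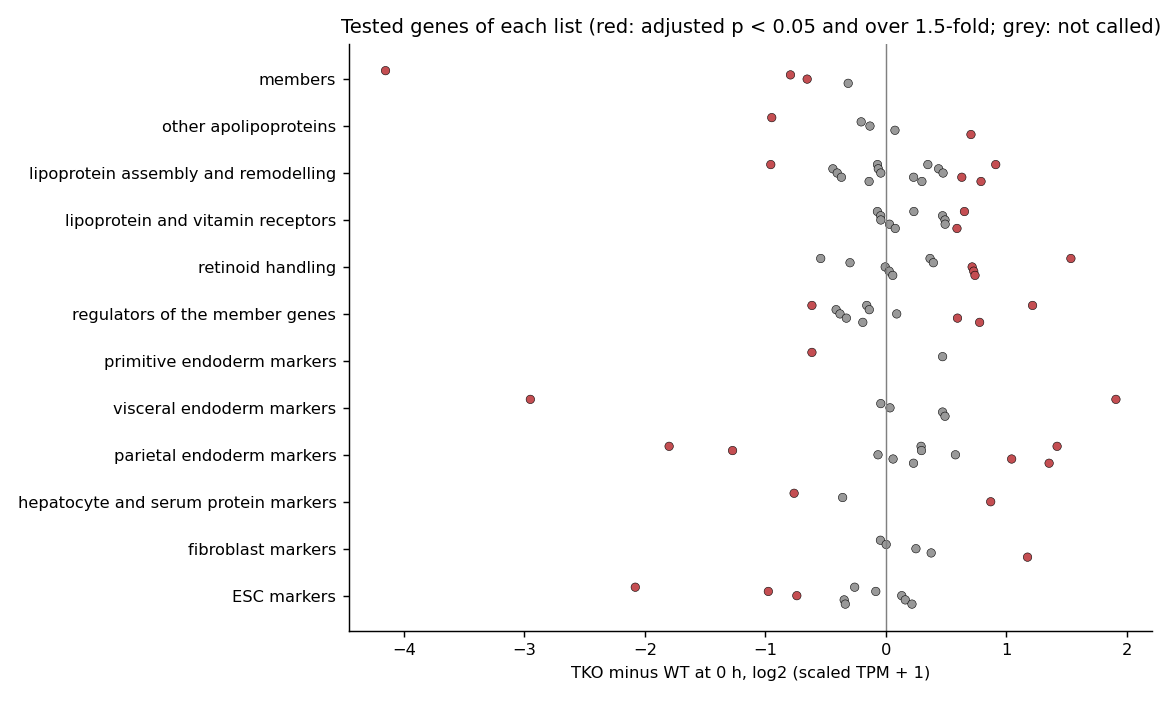
Log2 difference of scaled TPM + 1 between TKO and WT at 0 h (x axis) of every tested gene in each list (y axis), each point a gene, red where it was called and grey where not. Points fall on both sides of 0 in most lists, and Apoa2 at -4.15 is the leftmost point, followed by Spink3 at -2.95.

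Among tested markers of tissues that make these proteins, the calls did not go in one direction. The filter leaves out a gene near 1 TPM in WT that is lower in TKO, such as Cubn above. Other untested markers went both ways, with mean TPM at 0 h in WT and TKO of 0.617 and 0.302 for Gata6, 0.538 and 0.231 for Sox17, and 0.294 and 0.804 for Bmp2. Of 13 visceral endoderm markers, 6 were tested and 1 was called higher and 1 lower at each time. Spink3 was lower, with a scaled mean of 56.6 ± 6.11 TPM (SD, n = 2) in WT and 6.78 ± 3.29 in TKO at 0 h, a log2 difference of -2.95 ± 0.23 (SE) with an adjusted p from limma of 1.3e-05. Cited1, a transcriptional coregulator, was higher by 1.91 ± 0.18 with an adjusted p from limma of 4.0e-05. Of 12 parietal endoderm markers, 11 were tested, with 3 called higher and 2 lower at each time. The higher ones were the basement membrane genes Col4a1, Col4a2 and Sparc, and the lower ones Lama1, a laminin chain, and Srgn, a proteoglycan core protein. Sparc stood at a scaled mean of 125 TPM in WT and 258 in TKO at 0 h, and Lama1 at 51.2 and 20.6. Of 13 hepatocyte and serum protein markers only 3 were tested, of which Ahsg was called higher and Gc lower at 0 h. At 4 h 1 was called higher, Ahsg, and 2 lower, Gc and Trf, the iron carrier transferrin, at -0.71 with an adjusted p from limma of 4.8e-05. A pseudocount of 5 TPM ended all 5 of these calls, and those of Gc and Trf at 4 h were also lost without size factors. Gc lost its call at 0 h without replicate 2 of WT (-0.54), and at 4 h without replicate 1 of WT (-0.47) or replicate 2 of TKO (-0.52). Alb was listed at 0 in all 4 libraries at 0 h. Of 7 primitive endoderm markers 2 were tested and 1, Gata4, was called lower at 0 h and none at 4 h. Of 10 fibroblast markers 5 were tested and 1, Col1a2, was called higher at each time. Of the 10 ESC markers, all tested, 3 were called lower at each time, with Zfp42 falling from a scaled mean of 489.6 TPM in WT to 115 in TKO at 0 h. What part these cell type markers have in the lower Apoa2, Apoc1 and Apoe was not tested.

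With α-amanitin none of the genes in the lists of other apolipoproteins, lipoprotein assembly, receptors, retinoid handling and regulators was called in either genotype. The medians of these lists in WT ran from 0.04 to 0.25, against 0.03 over all genes. Among the marker lists only ESC markers had calls, with Fgf4 and Sox2 lower in WT and Fgf4 lower in TKO. The call of Sox2 in WT was lost with a pseudocount of 5 TPM (-0.58) and without replicate 1 of WT at 4 h (-0.54). That of Fgf4 in TKO, at an adjusted p from limma of 0.049, was lost with the replicate block (0.063), without the filter (0.18), with pseudocounts of 0.1 and 5 TPM, and on leaving out any library other than replicate 1 of TKO at 4 h. Between polyA and ribodepleted WT libraries, Clu went the other way from Apoa2, with a log2 difference of -1.23 ± 0.06 (SE) and an adjusted p from limma of 3.9e-07.

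The genes around Apoa2, Apoc1 and Apoe were compared in the same fit. On one side of Apoa2 lie Tomm40l, Nr1i3 and Pcp4l1, and on the other Fcer1g and Adamts4. The nearest on each side, Tomm40l and Fcer1g, differed by -0.18 ± 0.07 (SE) and -0.11 ± 0.28 on the log2 scale at 0 h and were not called. Nr1i3, a nuclear receptor whose coding strand is that of Apoa2, was under the filter, at 0.175 TPM in WT and 0.0236 in TKO at 0 h, and it overlaps Tomm40l on the opposite strand. Pcp4l1, about 41 kb away between gene centres, had a log2 difference of -0.76 ± 0.15 with an adjusted p from limma of 0.0031 and was called lower at both times. Without replicate 1 of TKO at 4 h its 4 h difference was -0.53 and not called, and a pseudocount of 5 TPM ended both calls. Adamts4 was called higher at 4 h only, by 0.72 ± 0.10 with an adjusted p from limma of 0.00036, and lost this call under quantile normalisation and with a pseudocount of 5 TPM. Whether its difference changed between the times was not shown. No tested neighbour of Apoa2 approached its difference of -4.15.

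Around Apoc1 and Apoe, the difference in Tomm40, the mitochondrial import gene beyond Apoe, was -0.42 ± 0.05 (SE) at 0 h and -0.60 ± 0.05 at 4 h on the log2 scale. It was called lower at 4 h with an adjusted p from limma of 1.7e-05, and not without size factors (-0.44), under quantile normalisation (-0.40), or without replicate 1 of WT (-0.56) or of TKO at 4 h (-0.58). Pvrl2, a nectin adhesion gene, differed in the other direction, by 0.44 ± 0.05 at 0 h and 0.53 ± 0.05 at 4 h, and was not called. Clptm1, beyond the apolipoprotein cluster on the other side, differed by 0.16 ± 0.05 and 0.24 ± 0.05. Apoc2 and Apoc4, the other apolipoprotein genes of the cluster, were under the filter with means of 0.499 and 0.149 TPM in WT and 0.233 and 0.613 in TKO at 0 h, and since they overlap each other their reads may be split uncertainly. The last neighbour, Gm20512, is not among the genes of the files.

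**Figure D5:**
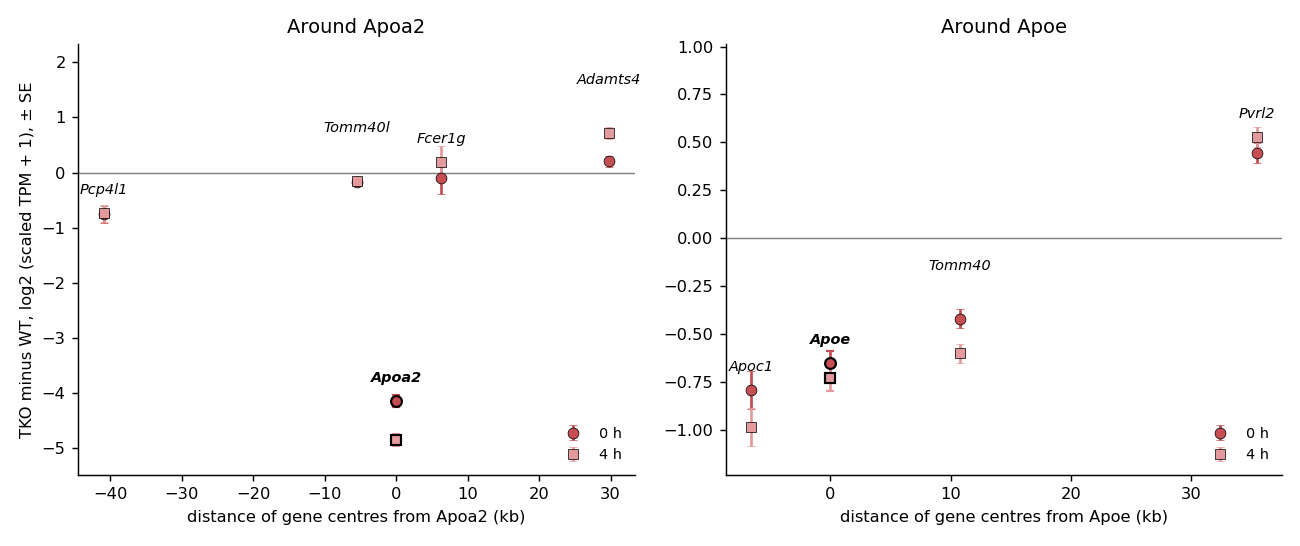
Log2 difference of scaled TPM + 1 between TKO and WT (y axis, with SE) of the tested genes around Apoa2 (left) and Apoe (right) against the distance between gene centres (x axis, kb), with circles for 0 h and squares for 4 h. Apoa2 lies far below its neighbours, whereas Apoe, Apoc1 and Tomm40 lie below 0 together and Pvrl2 above it.

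Genes with a pattern like that of Apoa2 over the 11 libraries were ranked by Pearson's r of log2(scaled TPM + 1) among 12568 genes. The 5 highest were Serpinb6c, Slc1a5, Pdk1, Chd5 and Srp9, with r from 0.994 to 0.996. Serpinb6c, a serine protease inhibitor gene, had mean TPM of 23.0 in WT and 3.65 in TKO at 0 h and 41.9 in polyA libraries. Slc1a5, a glutamine transporter, had 42.9, 13.3 and 75.2 in the same groups. Pdk1 had 109, 51.2 and 140, Srp9 84.9, 37.0 and 115, and Chd5 2.22, 1.63 and 2.61. Pearson's r does not depend on the size of a difference, and all 5 genes remained present in TKO, unlike Apoa2. Among the members, Apoc1 had r of 0.94, Apoe 0.90 and Amn -0.09. The 11 points share 2 genotypes and 2 library types, so these values describe a pattern of groups and carry no test.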

How the data were processed

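RNA-seq of 11 mouse ESC libraries was used, grouped by genotype and time from the sample titles. The authors checked and filtered reads with FastQC, AfterQC, Bowtie2 and Trimmomatic, aligned them with STAR to mm9 with RefSeq genes, counted with HTSeq and deposited TPM; versions and strand setting are not given in the sources used here. Here TPM was divided by median-of-ratios size factors, and limma 3.58.1 (R 4.3.3) was run on log2(scaled TPM + 1) (eBayes with trend, two-sided, Benjamini-Hochberg) for genes with a mean scaled TPM over 1. The 8 ribodepleted libraries shared one fit, and polyA and ribodepleted 0 h WT libraries another. Calls needed an adjusted p under 0.05 and over 1.5-fold. Reads were recovered from TPM steps for 100.0% of genes above 0 (tolerance 0.01). Replicates differed by more than sampling noise (chi-square per degree of freedom at least 1.56). The fit was tested on simulated data. Promoter windows came from RefSeq, positions from GENCODE on NCBIM37.

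The members and gene lists were chosen with earlier results of these data known. All members were named. Of the other lists at most 3 called genes per direction and comparison were named, without overlapping libraries, besides up to 3 neighbours on each side of Apoa2, Apoc1 and Apoe and the 5 genes most like Apoa2. Some genes are not reported here. Alternatives were deposited TPM, quantile normalisation, pseudocounts of 0.1 and 5 TPM, no filter, a replicate block, voom on recovered reads and leaving out each library.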

Additional observations from a re-analysis of the deposited data

How the results depend on the processing

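The number of members called stayed at 0 in every alternative for both α-amanitin comparisons and the interaction. For TKO against WT, where the members were selected and a count tests nothing, Apoe missed 1.5-fold with deposited TPM and with quantile normalisation. For polyA against ribodepleted RNA it was 2, and 3 with a pseudocount of 0.1 TPM or voom, and 2 to 3 without 1 library, the 3 being without replicate 2 of WT at 0 h. Without replicate 1 of that group Amn was under the filter and has no value.

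Some values close to 0 changed sign. The interaction of Apoe was 0.0037 with quantile normalisation, and its polyA difference was 0.0277 with deposited TPM. The 4 h difference of Tomm40l between the genotypes was 0.00064 with deposited TPM. Leaving out 1 library gave the change of Amn with α-amanitin in WT a range of -0.0825 to 0.34, the interaction of Amn -0.0774 to 0.34 and that of Apoe -0.17 to 0.0204. For Fcer1g between the genotypes it gave -0.48 to 0.26 at 0 h and -0.11 to 0.49 at 4 h. The cause was not tested.

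The fitted difference of Apoa2 between the genotypes at 0 h depended on the pseudocount, at -6.64 with 0.1 TPM and -2.23 with 5 TPM, and is no bound. With 2 libraries per group, a fit without 1 library assumes that the remaining one varies like the other groups. Outside the members, 101 calls of named genes were tried under all alternatives, and 52 were lost in at least 1 of them, 11 with deposited TPM or quantile normalisation.

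Differences between same-numbered libraries correlated at -0.04 to 0.12 across pairs of groups, so no shift shared by number was seen. Whether same-numbered libraries came from the same culture is not given by the labels and cannot be settled by these correlations. Blocking on that number, the members called stayed at 0, 0 and 0 for the α-amanitin fits and 2 for polyA, while the call of Fgf4 in TKO was lost.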
